A study of Mus musculus with 80 samples.

Results

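The 1084 regions described here were intergenic RXR sites, places outside annotated protein-coding genes at which DNA pulled down with an antibody to the retinoid X receptor (RXR) formed a peak in mouse liver. Overlapping peaks of 40 chromatin immunoprecipitation (ChIP-Seq) libraries were merged into 215015 sites on chromosomes 1 to 19, X and Y, and 36132 of these were called, that is, held a peak, in 3 or more libraries. A site was kept when its strongest summit lay outside protein-coding genes and the 5 kb upstream of them and when the site touched no annotated exon of any transcript type (GENCODE M21, mouse genome build mm10). These conditions left 1084 of the 36132 sites, although sequence of this kind made up 57% of the genome. Members were thus chosen by the number of libraries that called a site and by summit position, and these are given below as a description: 437 members were called in exactly 3 libraries, just inside the limit, and 2536 intergenic sites called in exactly 2 libraries fell just outside it.

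Male C57BL6/J wildtype (WT) mice and male PPARg knockout (KO) mice, bred from PPARg-loxP and Alb-Cre lines, were compared at 5 months of age. They had spent 12 weeks on a low-fat control diet (Control) or a high-fat diet (HFD), given alone or with the PPARγ agonist pioglitazone added (Pio and HFD-Pio). There were 5 livers in each of 8 groups, and a ChIP and an input library from each liver (80 samples). The knockout was made with a Cre driven by the albumin promoter, which is active in hepatocytes, so the other cells of a KO liver still had the gene. WT mice were obtained as C57BL6/J animals from a supplier, and the paper does not say that they were littermates of the KO mice. The sample labels named an RXR antibody for all WT samples and for KO Control, but named none for the 15 ChIP samples of KO Pio, KO HFD and KO HFD-Pio, and comparisons of those groups with KO Control rest on their having been treated alike. Whole liver was used, so binding in fewer cells and weaker binding per cell cannot be told apart.

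WT libraries kept 2.04 M to 4.26 M tags and were called by the authors at a p cutoff of 0.001, and KO libraries kept 0.628 M to 1.06 M tags and were called at a q cutoff of 0.05. Depth and cutoff therefore cannot be told apart from genotype. The fragment length estimated by the peak caller was 45 to 48 bp in 6 WT libraries, all of them treated (WT Pio 2, 3 and 5, and WT HFD-Pio 1, 4 and 5), and 169 to 292 bp in the other 14. Comparisons of treated WT livers were repeated without these 6 libraries where a value is given for that. Where this left 2 treated livers against 5 others, an exact permutation p could not go below 0.0476 before adjustment.

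RXR is a nuclear receptor that works mostly as the partner of other receptors, among them PPARγ, the target of pioglitazone, PPARα, the liver X receptors and the farnesoid X receptor. Pairs with the PPARs and the liver X receptors bind direct repeats of the letters AGGTCA, and PPAR-RXR pairs prefer a spacer of 1 base between them. In liver, many such elements lie far from promoters, in enhancers between genes. The space between genes also holds tandem repeats, transposable elements and processed pseudogenes, which are copies of spliced messenger RNAs pasted back into the genome, and short reads from such sequences can match more than a single place.

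The intergenic sites were 48 to 6709 bp wide, with a median of 328 bp, and were called in a median of 4 and at most 39 libraries. Their mean fold enrichment, the ratio of ChIP to local input at the summit as deposited, had a median of 4.29 and ran from 1.69 to 32. The pileup signal at the summit, the height of stacked tags, was low. Its median over the intergenic sites of a library was 4 to 9.5 in WT and 3 to 7 in KO libraries, so calls and fold enrichments rest on few tags. The median distance from summit to the nearest protein-coding gene was 30880.5 bp (24 to 2140253 bp), 236 sites lay within 5 kb downstream of a gene, 305 lay over 100 kb from any, and 144 lay inside an annotated non-coding gene but outside its exons. They were found on every chromosome, with 24 on chromosome 19 to 85 on chromosome X. In the RefSeq annotation, which was not used to choose them, 255 overlapped an exon (23.5%) and 114 overlapped a pseudogene (10.5%). The word intergenic thus holds for GENCODE M21.

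Sequences around the summits are shown for the kinds of site that the comparisons below turn on. Each is the plus strand of mm10. The first pair is shown because these sites were called in 39 of 40 libraries, more than any other intergenic site. They lie on chromosome 1 at 12644748 to 12644868, 47.5 kb upstream of Sulf1, a sulfatase gene, and on chromosome 17 at 4626295 to 4626415, 368 kb upstream of Arid1b, a subunit of a chromatin remodelling complex. Capitals mark the longest exact tandem repeat of the pentamer AATGG, read on the opposite strand as CCATT.
Sulf1 site: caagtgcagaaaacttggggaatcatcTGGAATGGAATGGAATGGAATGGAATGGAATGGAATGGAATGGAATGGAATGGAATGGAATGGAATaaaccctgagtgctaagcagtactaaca
Arid1b site: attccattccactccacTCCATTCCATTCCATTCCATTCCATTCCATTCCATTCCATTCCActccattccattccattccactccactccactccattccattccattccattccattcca

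The next sequence is shown because its site was called in 9 of 10 untreated WT livers and in 0 of 20 KO livers. It lies on chromosome Y at 69104477 to 69104597. Capitals mark the 50 bases at the summit, which read as a tract of the purines A and G.
Y purine site: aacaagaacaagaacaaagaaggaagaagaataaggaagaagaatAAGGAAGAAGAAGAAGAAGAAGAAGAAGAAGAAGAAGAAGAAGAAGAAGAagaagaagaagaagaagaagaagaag

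The next pair is shown because these sites were called in all 10 Pio-treated WT livers and in 0 of 10 untreated WT livers. They lie on chromosome X at 48010374 to 48010494, in a RefSeq pseudogene (Gm7743) that matched the messenger RNA of Calm2, a calmodulin gene, and on chromosome 6 at 3201435 to 3201555, in sequence that matched a ribosomal RNA. Capitals mark the 50 bases at the summit.
Calm2-like site: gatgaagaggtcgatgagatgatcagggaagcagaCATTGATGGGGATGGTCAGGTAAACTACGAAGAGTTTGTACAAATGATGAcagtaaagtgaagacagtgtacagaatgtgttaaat
Ribosomal RNA-like site: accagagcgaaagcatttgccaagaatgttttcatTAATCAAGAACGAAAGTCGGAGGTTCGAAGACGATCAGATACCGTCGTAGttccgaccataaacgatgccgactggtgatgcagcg

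The last pair holds the intergenic sites whose summit windows came closest to a direct repeat of AGGTCA with a spacer of 1 base, with 1 mismatch each. They lie on chromosome 12 at 81715770 to 81715850, 5.21 kb downstream of Map3k9, a kinase gene, and on chromosome 6 at 36845777 to 36845857, 0.230 kb downstream of Dgki, a diacylglycerol kinase gene. Capitals mark the repeat.
Map3k9 site: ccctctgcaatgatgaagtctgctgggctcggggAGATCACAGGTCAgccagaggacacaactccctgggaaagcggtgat
Dgki site: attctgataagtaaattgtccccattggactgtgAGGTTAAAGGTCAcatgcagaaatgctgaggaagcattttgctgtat

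Purine tracts, tandem repeats and transcript-like sequence were common at the intergenic sites, which is given as a description with no test. Within 100 bp of the strongest summit, a tract of 50 bases with at least 45 purines on 1 strand was found at 248 of 1084 intergenic sites (22.9%), 14.3% of 1291 intronic sites outside exons, 1.16% of 33657 sites overlapping an exon and 3.04% of all windows of the same length in the genome. An exact tandem repeat of at least 24 bases was present in 187 intergenic windows (17.3%), 10.1% of intronic and 0.876% of exon windows, against 4.94% of genome windows. The AATGG repeat was present in 18 intergenic windows (1.66%) and 0.387% of intronic windows, against 33 of 13171266 genome windows (0.000251%). The letters TGTAATCCCAGC, common in Alu, a transposable element of primates, were present in 44 intergenic windows (4.06%), 4.65% of intronic, 0.0238% of exon and 0.0852% of genome windows. TTTAATCCCAGC, the form common in the related B1 elements of mouse, was present in 35 (3.23%), 3.72% of intronic and 0.0594% of exon windows, against 0.887% of genome windows. At 282 intergenic sites (26%) a single alignment of at least 90% identity to a transcript from elsewhere in the genome covered at least 50% of the site, against 15.4% of intronic sites.

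Direct repeats of AGGTCA with a spacer of 1 base were not more frequent at these sites than elsewhere. Allowing 2 mismatches on either strand, 14 of 1084 windows held such a repeat (1.29%), against 2.32% of intronic, 2.65% of exon and 2.35% of genome windows. With 1 mismatch the count was 2 (0.185%, genome 0.310%), and 0 intergenic windows held an exact repeat (genome 0.0312%). Spacers of 0, 2, 3, 4 and 5 bases gave 3.51, 1.29, 2.68, 1.48 and 1.66% of intergenic windows at 2 mismatches, against 2.52, 2.31, 1.91, 1.96 and 1.83% of genome windows. An inverted repeat of AGGTCA with a spacer of 1 base was present in 0.277% of intergenic windows at 2 mismatches (genome 0.953%). The forkhead letters TGTTTAC, bound by FOXA factors, were present in 2.21% (genome 3.01%), and TTGCNCAA, bound by C/EBP factors, in 1.48% (genome 1.91%). A match of letters is a description and not evidence of binding, and a window without one says nothing about the factor.

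The Map3k9 site, with a 1-mismatch repeat, was called in 15 libraries, all KO (3 KO Control, 5 KO Pio, 3 KO HFD and 4 KO HFD-Pio livers), with a fold enrichment of 2.83 to 4.76. The Dgki site was called in 5 KO libraries with a fold enrichment of 2.85 to 4.73, and both overlapped an exon of their gene in the RefSeq annotation. Another site, with 2 mismatches, lay on chromosome 9 at 3258706 to 3259045, 76.3 kb upstream of Alkbh8, a transfer RNA methyltransferase, and was called in 21 libraries with a mean fold enrichment of 4.63, among them 7 of 10 Pio-treated and 0 of 10 untreated WT livers.

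The kind of livers that called an intergenic site went with its sequence. Called in KO livers alone were 346 sites, in Pio-treated WT livers alone 209, in untreated WT livers alone 72, in untreated and treated WT livers but no KO liver 216, in treated WT and KO livers but no untreated WT liver 190, and in untreated WT and KO livers 51. Of the 72 sites of untreated WT livers 75% had a purine tract and 88.9% were mostly soft-masked, the genome file's mark for repeats. The 216 sites of untreated and treated WT livers were alike in this, with 59.3 and 80.6%. Of the 209 sites of Pio-treated WT livers 73.2% matched a transcript over at least 50% of the site, as did 41.1% of the 190 sites of treated WT and KO livers. Of the 346 sites of KO livers 47.1% overlapped a RefSeq exon, 52.9% lay within 5 kb downstream of a gene and 96.8% had a summit 50-mer found once in the genome, against 48.3% of the 209. The AATGG repeat was in 45.1% of the 51 sites called in untreated WT and KO livers. As these 6 patterns follow from the calls that chose the sites, they are a description.

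**Figure D1:**
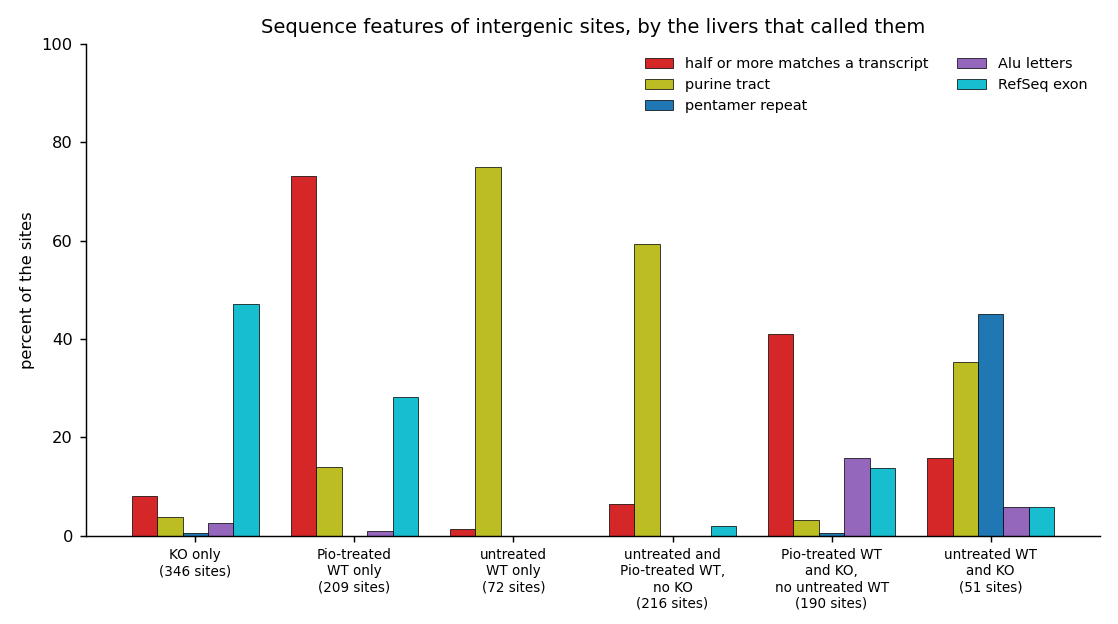
Percent of intergenic sites (vertical axis) with each of 5 sequence features, in 6 sets given by the livers that called them, with the number of sites under each set; the pentamer repeat is AATGG. The transcript bar was tallest in sites of Pio-treated WT livers (73.2%), the purine bar in sites of untreated WT livers (75%) and the RefSeq exon bar in sites of KO livers (47.1%).

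The numbers of intergenic sites called in each liver were compared for Pio, diet and genotype. The same calls chose the 1084 sites, 209 of which entered through Pio-treated WT livers alone, so the values over all 1084 are a description with no test. Tests were run on the sites called in at least 3 libraries outside the groups compared, a choice made after seeing the data. For the WT Pio contrasts these outside libraries include the KO livers and the treated WT livers of the other diet. WT Control livers had 42, 218, 78, 134 and 54 of the 1084 sites, and WT Pio livers 219, 251, 416, 72 and 251. WT HFD livers had 78, 58, 93, 40 and 96, and WT HFD-Pio livers 315, 55, 99, 289 and 165. In both diets 4 of 5 treated livers were above the highest untreated liver, and 1 treated liver on control diet and 1 on HFD lay within the untreated range. On the scale of log2(number + 1) the difference was 2.38-fold on control diet and 2.18-fold on HFD. Within livers with longer fragment estimates, 2 treated against 5 untreated, it was 1.43-fold and 1.06-fold. When each list was shortened to the length of the shortest in the contrast, the log2 difference was -0.13 on control diet and -0.86 on HFD, the opposite direction. Among the 646 sites chosen by libraries outside WT Pio and WT Control, treated livers called 36 to 203 and untreated livers 30 to 39, a log2 difference of 1.73 (exact permutation p = 0.0238, adjusted p = 0.0714 over 12 contrasts). Among 744 such sites on HFD they called 32 to 215 and 21 to 33, a difference of 1.77 (exact permutation p = 0.0159, adjusted p = 0.0635). Neither passed, except without WT Pio 4 (2.13) or WT HFD-Pio 2 (2.14, exact permutation, adjusted p = 0.0317 for both), and within longer fragment estimates they were 0.99 and 0.47 (exact permutation, adjusted p = 0.313 and 0.286).

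KO Control livers had 208, 284, 236, 162 and 216 sites, KO Pio livers 205, 152, 193, 231 and 186, KO HFD livers 180, 309, 255, 220 and 57, and KO HFD-Pio livers 179, 194, 158, 158 and 125. The KO groups overlapped widely. Pio against no Pio differed by -0.18 on the log2 scale on control diet and by -0.14 on HFD, and with shortened lists the first of these was -0.92. Among the 865 and 871 sites chosen outside the groups compared the differences were -0.19 and -0.18 (exact permutation, adjusted p = 0.313 and 0.753).

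The Pio effect over all 1084 sites was 1.44 larger on the log2 scale in WT than in KO livers on control diet and 1.27 larger on HFD, and within longer fragment estimates these differences were 0.70 and 0.23. Among the 423 sites chosen by libraries outside the 4 groups of the control diet the difference was 1.85 (permutation of residuals, p = 0.00085, adjusted p = 0.00340 over 4 differences). Among 532 such sites on HFD it was 1.91 (permutation of residuals, p = 0.0102, adjusted p = 0.0205). Both passed, and both did so without any 1 liver. Within longer fragment estimates the first was 1.16 and passed (permutation of residuals, adjusted p = 0.0302), and the second was 0.64 and did not (permutation of residuals, adjusted p = 0.320). Neither was computed with shortened lists, which reversed the sign of the Pio difference in WT livers. The test removed the mean of each genotype and permuted what was left between WT and KO livers. It is therefore approximate, and it takes WT and KO livers as alike in spread. Depth and calling cutoff differed with genotype, and their part in these differences cannot be told apart from it. The outside libraries were those of the other diet, treated WT livers among them.

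Diet contrasts gave log2 differences of -0.33 for WT HFD against WT Control and -0.25 to -0.46 for the other 3, and none of the 4 passed among sites chosen outside the groups compared (-0.20 to -0.44, exact permutation p = 0.167 to 0.770). Untreated WT livers differed from untreated KO livers by -1.30 on control diet and by -1.34 on HFD, and the direction depended on the processing. With a -log10 q of at least 5 these were -2.38 and -2.93, with lists shortened to equal length 0.24 and 1.13, and with a minimum of 2 libraries 0.0906 and -0.24. Among the 762 and 817 sites chosen outside the groups compared they were -2.22 and -2.23 (exact permutation p = 0.00794, adjusted p = 0.0476 for both), and the second no longer passed without any 1 WT HFD liver (-2.28 to -2.15, exact permutation, adjusted p = 0.0635).

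**Figure D2:**
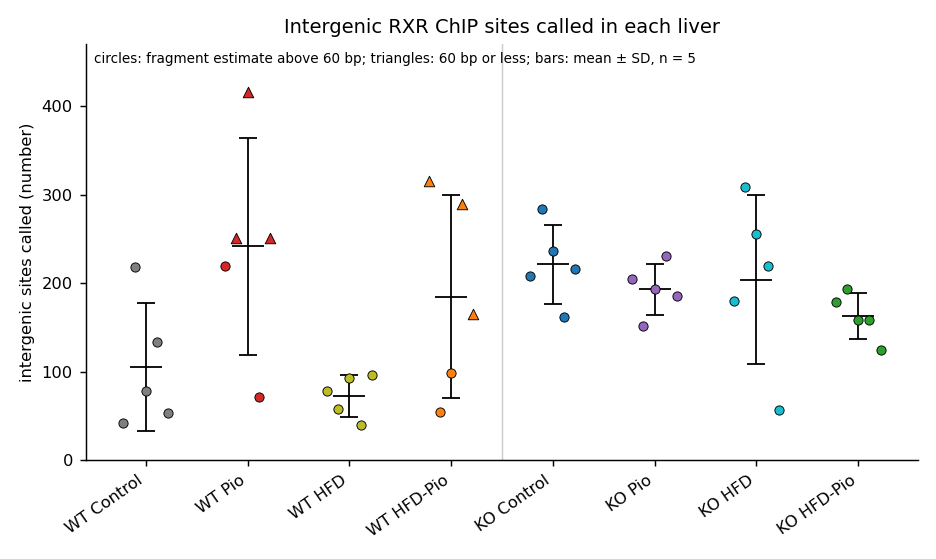
Number of intergenic sites called (vertical axis) in each of 40 livers, by group; circles are libraries with a fragment estimate above 60 bp, triangles those of 60 bp or less, and bars give the mean ± SD (n = 5). Treated WT livers spread from 55 to 416 sites and untreated WT livers from 40 to 218, and the KO groups overlap.

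The ratio of intergenic to intronic sites called was higher in WT than in KO livers. It had group medians of 1.35 (WT Control), 1.38 (WT Pio), 1.45 (WT HFD) and 1.34 (WT HFD-Pio), and of 0.863, 0.704, 0.840 and 0.718 in the same KO groups. WT and KO livers did not overlap in any of the 4 treatments: WT livers had ratios of 1.05 to 1.92 and KO livers of 0.612 to 1.01. The genotype difference was 1.59-fold in Control, 2.02-fold in Pio, 1.85-fold in HFD and 1.81-fold in HFD-Pio. Among sites chosen outside the groups compared it was 1.60-fold, 1.66-fold, 1.54-fold and 1.38-fold (exact permutation p = 0.00794 each, the smallest that 5 livers against 5 can give, adjusted p = 0.0238). The difference in HFD-Pio no longer passed without WT HFD-Pio 4 or WT HFD-Pio 5 (log2 difference 0.43 and 0.41, exact permutation, adjusted p = 0.0762). Within longer fragment estimates the log2 difference in Pio was 0.91 and that in HFD-Pio 0.31 (exact permutation, adjusted p = 0.114 and 0.286). The unadjusted exact permutation p of the former was 0.0476, the lowest that 2 livers against 5 can give. Depth and calling cutoff differed with genotype, and their part in this ratio cannot be told apart from it. With a -log10 q of at least 5 the log2 difference over all 1084 sites was 0.44 in Control and 0.62 in HFD. At the authors' cutoffs it was 0.67 and 0.89, and these values over all 1084 sites are a description with no test. The Pio contrasts of the ratio among sites chosen outside ranged from -0.15 to 0.0771 on the log2 scale (exact permutation, adjusted p = 0.0762 to 0.802), and that of KO Pio passed without KO Pio 2 or KO Pio 5 (-0.10, exact permutation, adjusted p = 0.0381). The diet contrasts ranged from -0.24 to 0.14 (exact permutation p = 0.119 to 0.540).

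**Figure D3:**
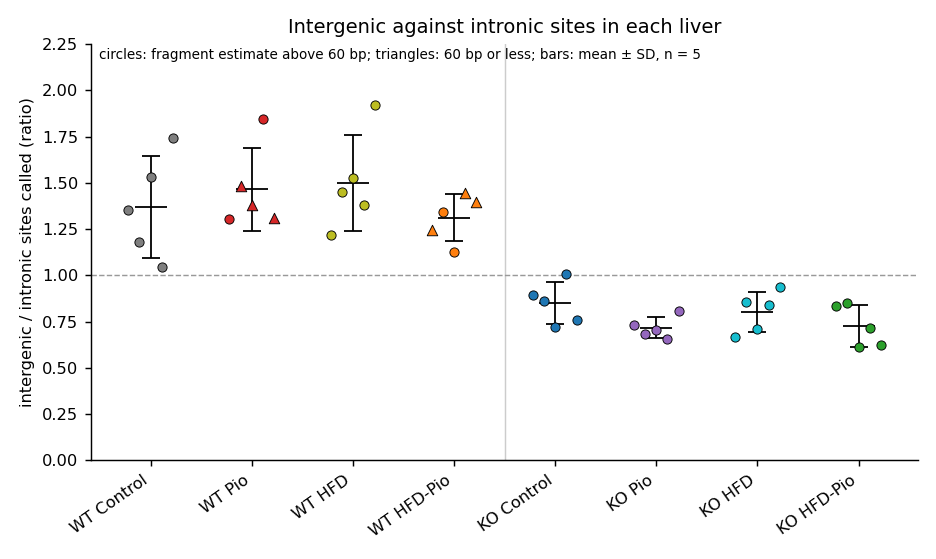
Ratio of intergenic to intronic sites called (vertical axis) in each liver, by group; the dashed line marks a ratio of 1, and circles, triangles and bars are as in the plot of site numbers. All 20 WT livers lie above 1 and the highest KO liver is at 1.01.

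Pio-treated WT livers called a larger share of intergenic sites that match transcripts than untreated WT livers did. The share of called intergenic sites of which at least 50% matched a transcript was 9.52, 5.05, 1.28, 2.24 and 5.56% in WT Control livers and 42.9, 54.6, 50, 20.8 and 50.6% in WT Pio livers. In WT HFD livers it was 10.3, 8.62, 3.23, 7.5 and 3.12%, and in WT HFD-Pio livers 52.7, 20, 20.2, 54.0 and 44.8%. No treated liver overlapped the untreated ones on either diet. The difference was 39.1 percentage points on control diet and 31.8 on HFD, and 27.1 and 13.6 within livers with longer fragment estimates. Of the 282 sites of this kind 153 entered through Pio-treated WT livers alone, so these values are a description. Among sites chosen outside the groups compared the share was 33.3 to 43.4% in WT Pio and 0 to 10.3% in WT Control, a difference of 35.4 (exact permutation p = 0.00794, adjusted p = 0.0198 over 20 tests of 5 features). It was 25 to 46.3% in WT HFD-Pio and 0 to 16.7% in WT HFD, a difference of 33.0 (exact permutation p = 0.00794, adjusted p = 0.0198). Both passed, also without any 1 liver. Within longer fragment estimates they were 32.3 and 24.2, where 2 treated livers against 5 cannot go below p = 0.0476 (exact permutation, adjusted p = 0.0733 for both). Untreated livers called only 21 to 39 of these sites, so each site is a large step in their shares. These feature comparisons were chosen after the sequences had been seen. For the WT Pio contrasts the outside libraries include treated WT livers of the other diet. Sites that match transcripts can enter the tested set through those livers, so the tests are not free of the Pio calls that chose the sites.

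In KO livers the transcript share moved the other way on control diet. It was 20.2, 21.1, 19.1, 24.7 and 17.6% in KO Control and 14.1, 15.1, 14, 13.4 and 14% in KO Pio, with no overlap, a difference of -6.40 percentage points, and of -4.51 among sites chosen outside the groups compared (exact permutation p = 0.00794, adjusted p = 0.0198), which passed also without any 1 liver. KO livers on HFD had 13.9 to 24.6% without and 12 to 18.4% with Pio, a difference of -2.35, and of -0.91 among sites chosen outside (exact permutation p = 0.579, adjusted p = 0.610).

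The 282 sites of this kind matched transcripts at a median identity of 95.5%, 274 of them a transcript of a protein-coding gene, and these belonged to 186 genes. In 90 of the 282 (31.9%) the match ran across a junction between exons of the transcript, 87 lay in a RefSeq pseudogene, and the summit 50-mer was found once in the genome for 162 (57.4%). Genes with most matching sites were Actg1, a cytoskeletal actin, with 9 sites, H3f3a, a histone H3 variant, with 8, Ptma, the gene of prothymosin alpha, with 7, Nsl1, a kinetochore protein, and Sumo2, a protein modifier, with 6 each. These genes are expressed in most cell types.

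The Calm2-like site, 14.7 kb downstream of Apln, a peptide hormone gene, matched Calm2 at 95.9% identity over 92.2% of its length. Its fold enrichment was 12.2, 18, 28.8, 5.49 and 19.1 in WT Pio livers and 24.1, 6.20, 5.04, 19.1 and 10.1 in WT HFD-Pio livers, and it was not called in 10 of 10 untreated WT livers. It was called in 17 of 20 KO livers with 2.83 to 8.58. A site on chromosome 8 at 111309672 to 111310329, 1.74 kb downstream of Mlkl, a gene of necroptosis, matched Rps27a, a ribosomal protein gene, at 96.0% identity and was called in 9 of 10 treated WT livers (fold enrichment 2.99 to 21.8) and in no other liver. The ribosomal RNA-like site was called in all 10 treated WT livers with 2.55 to 30.8, in all 20 KO livers and in no untreated WT liver. A site on chromosome 14 at 104715660 to 104716097, 193 kb upstream of Rnf219, a ubiquitin ligase, matched no transcript, had 7 copies of its summit 50-mer in the genome, and was called in all 10 treated WT livers (fold enrichment 2.45 to 21.2) and in 0 of the other 30.

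Purine tracts made up a smaller share of the called sites in treated than in untreated WT livers. The share was 64.1, 44.8, 64.5, 40 and 67.7% in WT HFD livers and 10.5, 27.3, 42.4, 10.7 and 15.8% in WT HFD-Pio livers, a difference of -34.9 percentage points. Of the treated livers 4 of 5 lay below the lowest untreated liver. On control diet it was 18.5 to 73.9% without and 7.17 to 48.6% with Pio, a difference of -24.6. Within livers with longer fragment estimates the differences were -21.4 on HFD and -13.2 on control diet. Among sites chosen outside the groups compared they were -25.4 on HFD (4.57 to 18.8% against 26.9 to 54.2%, exact permutation p = 0.00794, adjusted p = 0.0198) and -21.4 on control diet (4.83 to 19.4% against 16.7 to 59.0%, exact permutation p = 0.0159, adjusted p = 0.0317). The second no longer passed without WT Pio 1, 2, 3 or 5 (-21.2 to -20.4, exact permutation, adjusted p = 0.0529), and was -14.2 without WT Control 2. Neither passed within longer fragment estimates (-18.1 and -17.3, exact permutation, adjusted p = 0.127 and 0.392). KO livers had 1.27 to 7.77%, with differences of -1.91 on control diet and -2.67 on HFD. For sites chosen outside, these were -0.97 and -1.90 and did not pass (exact permutation, adjusted p = 0.0611 and 0.0529), except that the first passed without KO Pio 5, KO Control 3 or KO Control 5 (-1.15 to -1.10, exact permutation, adjusted p = 0.0397) and the second without KO HFD-Pio 1 (-2.42, exact permutation, adjusted p = 0.0176). In numbers, purine sites were 10 to 161 per WT Control liver, 18 to 63 per WT Pio liver, 16 to 65 per WT HFD liver and 15 to 42 per WT HFD-Pio liver. These numbers overlapped on both diets. A share also falls when other sites are added to the total, so the fall in WT livers is not a separate result from the rise in transcript share.

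Mostly soft-masked sites numbered 63, 39, 75, 26 and 76 in WT HFD livers and 87, 27, 61, 69 and 47 in WT HFD-Pio livers, and the groups overlapped. As a share of the sites called they were 79.2% in the median WT HFD liver and 28.5% in the median WT HFD-Pio liver, a difference of -36.4 percentage points (-19.2 within longer fragment estimates). WT Control livers called 20 to 184 of them and WT Pio livers 42 to 127, with a difference in share of -35.4 (-25.7 within longer fragment estimates). KO Control livers called 83, 87, 63, 66 and 54 and KO Pio livers 28, 14, 38, 27 and 45, with no overlap, and the share differed by -16.9.

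Among sites chosen outside the groups compared the difference in soft-masked share was -37.1 in WT HFD-Pio and -31.4 in WT Pio (exact permutation p = 0.00794, adjusted p = 0.0198 for both). Both passed, also without any 1 liver. Within longer fragment estimates the differences were -31.1 and -30.8 (exact permutation p = 0.0476, adjusted p = 0.0733 for both). That p is the lowest that 2 livers against 5 can give. In KO Pio it was -15.0 (exact permutation p = 0.0238, adjusted p = 0.0433), which no longer passed without KO Pio 2 or 4 or KO Control 1, 2 or 4 (-15.5 to -13.1, exact permutation, adjusted p = 0.0529 to 0.0611). In KO HFD-Pio against KO HFD the shares differed by -7.72 over all 1084 sites and by -6.44 among sites chosen outside (exact permutation, adjusted p = 0.261). Soft-masked shares have the same totals as the transcript shares. Their falls in treated WT livers are therefore not separate results from the rise in transcript share.

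**Figure D4:**
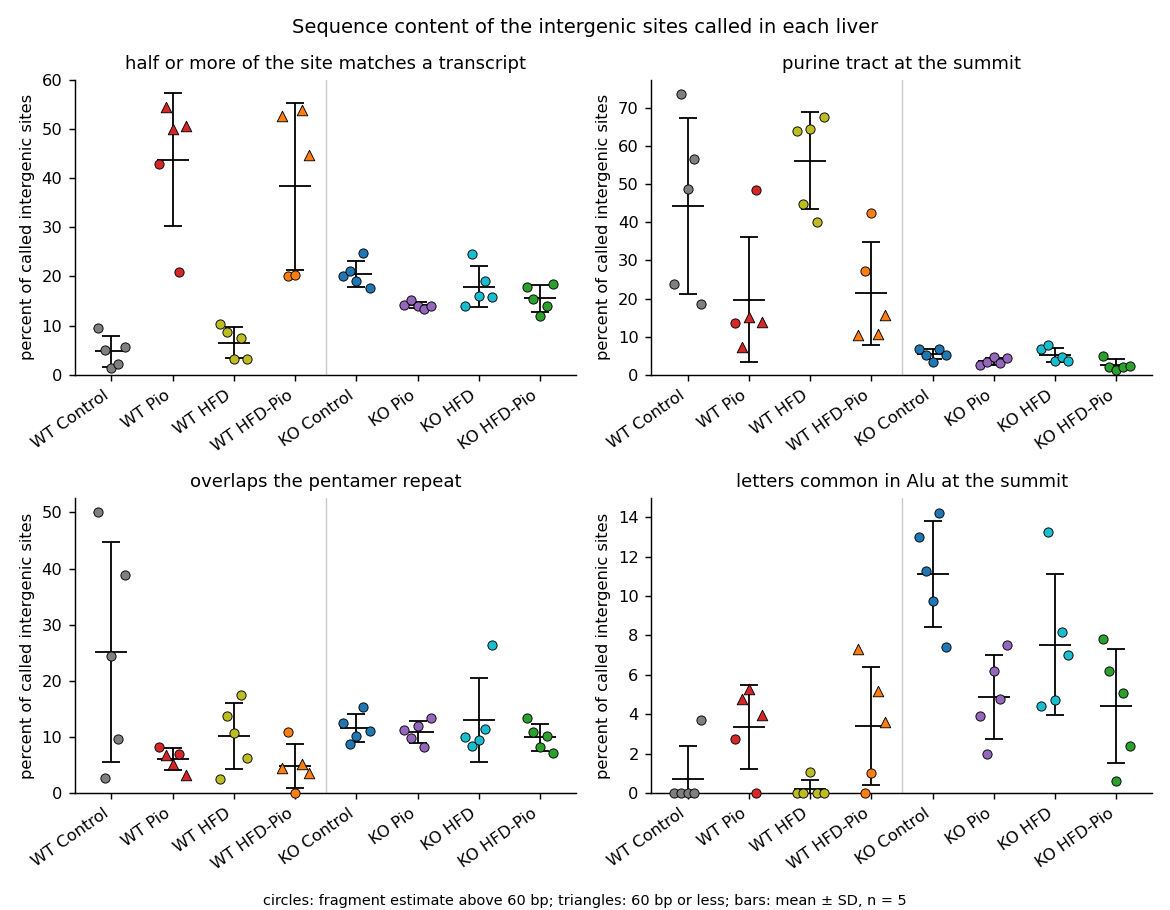
Percent of the intergenic sites called in each liver (vertical axes) with each of 4 sequence features, by group; circles, triangles and bars are as in the plot of site numbers, and the pentamer repeat is AATGG. For transcript matches the 10 treated WT livers lie at 20 to 54.6% and the 10 untreated WT livers at 1.28 to 10.3%.

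Single sites gained with Pio, called in at least 3 of 5 treated livers and in 0 of 5 untreated ones, were 165 in WT livers on control diet (15.2% of the intergenic sites), beside 10.7% of all 36132 sites, and 91 on HFD (8.39%), beside 6% of all. Of these, 100 (60.6%) and 51 (56.0%) matched a transcript over at least 50% of the site. Called in the livers with short fragment estimates alone were 32 of the 165 and 62 of the 91, and 19 and 12 sites were called in both treated livers with longer estimates and in no untreated liver. Lost sites, the reverse, were 12 on control diet (1.11%, all sites 0.0609%) and 7 on HFD (0.646%, all sites 0.0249%), and 0 of these 19 matched a transcript over at least 50% of the site. On this count 12 of the 22 sites of any kind lost without HFD and 7 of the 9 lost with it were intergenic. A lost site had to be called in untreated WT livers. Of the 36132 sites, those that an untreated WT liver called were 38.3 to 58.2% intergenic, against 5.02 to 10.9% in treated WT livers. The lost counts are therefore not read as particular to intergenic sites.

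Of the lost sites of WT livers 5 of 12 on control diet and 4 of 7 on HFD had a purine tract. The site on chromosome X at 105667669 to 105667959, 96.5 kb from Fgf16, a growth factor gene, had a purine tract and was called in 3 WT Control, 1 WT HFD and 1 WT HFD-Pio liver with a fold enrichment of 3.59 to 7.62. The site on chromosome 11 at 3100921 to 3103296, 29.5 kb downstream of Sfi1, a centrosome gene, was called in 5 of 5 WT HFD and 0 of 5 WT HFD-Pio livers, but also in 3 WT Pio livers, with 1.75 to 4.21.

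In KO livers 11 sites were gained with Pio on control diet (1.01%, all sites 3.25%) and 30 lost (2.77%, all sites 0.689%), and on HFD 4 were gained (0.369%, all sites 1.43%) and 15 lost (1.38%, all sites 1.05%). None of the 15 gained sites matched a transcript over at least 50% of the site, and 10 of the 30 and 2 of the 15 lost sites did. The 5 gained sites of highest rank on control diet lay 0.626 to 6.76 kb downstream of a gene. Among them were sites on chromosome 7 at 73421319 to 73421997, 1.53 kb downstream of Rgma, an axon guidance gene (5 of 5 KO Pio livers, fold enrichment 3.71 to 5.25, 0 of 5 KO Control), on chromosome 4 at 18120640 to 18121613, 2.14 kb downstream of Mmp16, a metalloproteinase gene (4 livers), and at 45808528 to 45808908, 0.626 kb downstream of Igfbpl1 (4 livers). Lost sites included one on chromosome 2 at 173460027 to 173460313, called in 5 of 5 KO Control and 0 of 5 KO Pio livers, and an AATGG site on chromosome 10 at 123092409 to 123092702, 12.4 kb downstream of Usp15, a deubiquitinase, with the same counts.

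For diet, gained and lost intergenic sites numbered 0 and 14 in WT HFD against WT Control (all sites 0.0083 and 0.0664%), 4 and 9 in WT HFD-Pio against WT Pio (0.0443 and 0.318%), 7 and 3 in KO HFD against KO Control (1.36 and 0.75%) and 7 and 8 in KO HFD-Pio against KO Pio (0.924 and 2.26%).

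When each site was tested alone, by how many livers called it (Fisher's exact test, two-sided), no site passed, and 5 livers against 0 was the split with the smallest p. After Benjamini-Hochberg adjustment 0% of 4115 sites passed in WT Pio, 0% of 2288 in WT HFD-Pio, 0% of 20340 in KO Pio, 0% of 19422 in KO HFD-Pio, and 0% of the 282, 5967, 18091 and 21580 sites of the diet contrasts. The lowest adjusted p of an intergenic site was 0.0578 in WT Pio against WT Control, where 19 intergenic sites were called in 5 treated and 0 untreated livers and 92 of 272 had an unadjusted p under 0.05, and 0.0588 in WT HFD-Pio against WT HFD, with 10 and 27 of 158. In KO Pio and KO HFD-Pio 25 and 4 had an unadjusted p under 0.05, and 2 to 5 in the diet contrasts. Left without WT Pio 4, the test passed 91 intergenic sites, and without any other WT Pio liver 19 or 20. Without WT HFD-Pio 2 or WT HFD-Pio 3 it passed 95 and 91, without any other WT HFD-Pio liver 11 or 12, and without an untreated liver of either contrast 0. The counts with a liver left out and those of unadjusted p are for intergenic sites alone. No share over all sites tested stands beside them, so they are not read as particular to intergenic sites.

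Where all 10 livers of a contrast called a site, its fold enrichment was compared, and 8 of 40 intergenic sites, 6 of them with the AATGG repeat, were lower in KO Pio than in KO Control. Of 2508 such sites 14 (0.558%) passed an adjusted p under 0.05 with at least a 2-fold change (limma), and 8 of the 40 intergenic sites among them did, all lower with Pio, with 21 of 40 at an unadjusted p under 0.05. The median log2 change was -0.65 over the 40 intergenic sites and -0.004 over all 2508. Of the 40 sites 15 overlapped the AATGG repeat, and all 15 had a negative change (median -1.09, -1.68 to -0.63), 6 of which passed. Another 3 had the letters common in Alu, with -1.31 to -0.81, and 1 passed. The other 22 had a median of 0.03 (-1.30 to 0.33), 10 of them negative, and 1 passed. These groups of sites were formed after the sequences had been seen.

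The Arid1b site had the highest mean fold enrichment of all intergenic sites (32 over 39 libraries). It was 104, 92.9, 55.8, 91.9 and 53.3 in KO Control and 25.4, 13.1, 49.6, 35.4 and 49.5 in KO Pio, with no overlap, a log2 change of -1.43 (SE 0.29, limma, adjusted p = 0.0162). In KO HFD it was 30.5, 120, 47.3, 65.6 and 27.3 and in KO HFD-Pio 33.0, 43.7, 16.3, 29.3 and 9.05. WT Control livers had 29.7, 6.63, 23.0, 16.7 and 42.5, and the other WT groups 4.50 to 20. Of the KO HFD livers 1 lay above and 1 within the KO Control range.

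A site on chromosome 9 at 62608358 to 62608796, 69.2 kb upstream of Itga11, an integrin gene, had the largest change, with 25.5, 17, 13.1, 26.5 and 7.52 in KO Control and 4.35, 4.70, 10.3, 4.42 and 5.56 in KO Pio (log2 change -1.68, SE 0.32, limma, adjusted p = 0.0114), and only the ranges' ends overlapped. A site on chromosome 6 at 10186156 to 10186927, 937 kb downstream of Nxph1, a neurexin ligand, had 14.9 to 26.9 in KO Control and 5.30 to 10.1 in KO Pio (log2 change -1.38, SE 0.25, limma, adjusted p = 0.00775). Both hold the AATGG repeat. The site that passed with neither the AATGG repeat nor the Alu letters lay on chromosome 10 at 115764128 to 115764459, 52.5 kb upstream of Tspan8, a tetraspanin gene, and had 7.5 to 16.5 in KO Control and 2.83 to 7.52 in KO Pio (log2 change -1.30, limma, adjusted p = 0.0351). It was singled out after its values had been seen.

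The call rested on single livers in part. Without KO Control 1, 1 intergenic site passed, without KO Control 4, 4, and without KO Pio 2 or KO Pio 4, 5. Without KO Control 5, KO Pio 3 or KO Pio 5, 15, 14 and 14 passed. KO Control was the KO group whose labels named the antibody. Its libraries kept 0.688 M to 1.06 M tags and those of KO Pio 0.660 M to 0.929 M, and the part of the antibody in the difference was not tested.

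In KO HFD-Pio against KO HFD 0% of 2775 sites passed the same limma test, and of 22 intergenic sites 4 had an unadjusted p under 0.05 (lowest adjusted p 0.0662), while 1 passed without KO HFD-Pio 1, KO HFD-Pio 2 or KO HFD 1. The 5 AATGG sites among them were at -1.70 to -0.40. In KO HFD against KO Control 0% of 2282 sites passed, 4 of 38 intergenic sites had an unadjusted p under 0.05, and all 13 AATGG sites were negative (median -0.38). Without KO HFD 2, 4 intergenic sites passed in that contrast. In KO HFD-Pio against KO Pio 0% of 3251 passed, with 2 of 25 intergenic sites at an unadjusted p under 0.05. WT contrasts left few sites: 0% of 9 passed in WT Pio against WT Control, 0% of 6 in WT HFD-Pio against WT HFD, 0% of 8 in WT HFD against WT Control and 0% of 185 in WT HFD-Pio against WT Pio, with 0, 0, 1 and 0 intergenic sites at an unadjusted p under 0.05. KO Control, KO HFD, KO Pio and KO HFD-Pio each enter 2 of these contrasts, so they do not stand for independent observations.

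**Figure D5:**
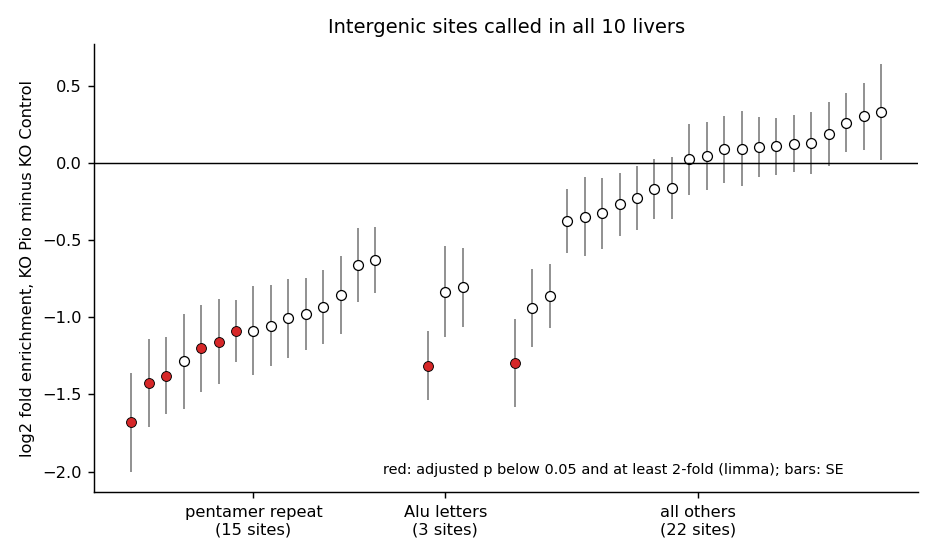
Log2 fold enrichment in KO Pio minus KO Control (vertical axis, limma estimate ± SE) for the 40 intergenic sites called in all 10 livers, sorted within 3 sets; the pentamer repeat is AATGG and red points passed. All 15 pentamer sites and all 3 sites with Alu letters lie below 0, and the other 22 have a median of 0.03.

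The AATGG repeat was rare in the genome, and most stretches of it were called in at least 3 of the 40 libraries. The genome held 38 stretches of it with at least 24 bases, of which 37 were overlapped by a site called in at least 1 library and 33 by a site called in 3 or more, 26 of them intergenic sites, 6 intronic and 1 overlapping an exon. The median longest run was 50 bases in the 33 and 29 in the other stretches. Repeats of this unit make up part of human satellite DNA, and the sequences shown above are from the mouse genome.

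The 26 intergenic AATGG sites were called in a median of 27 libraries and were 19 of the 59 intergenic sites called in at least 20 libraries and 10 of the 15 called in at least 30. Of the 26, KO Control livers called 26, 25, 24, 25 and 24, KO Pio livers 23, 15, 23, 19 and 25, KO HFD livers 18, 26, 24, 25 and 15, and KO HFD-Pio livers 24, 21, 13, 16 and 9. WT Control livers called 21, 6, 19, 13 and 21, WT Pio livers 18, 17, 22, 5 and 8, WT HFD livers 2, 8, 10, 7 and 6, and WT HFD-Pio livers 14, 6, 0, 15 and 6. KO Control was the group with the narrowest range and the highest calls, and no WT HFD liver called more than 10. As a share of the sites a liver called, the differences with Pio were -19.1, -5.34, -0.67 and -3.14 percentage points (WT Pio, WT HFD-Pio, KO Pio and KO HFD-Pio), and in WT livers -17.6 and -4.72 within longer fragment estimates. Among sites chosen outside the groups compared the share was 5.80 to 14.4% in WT Pio and 15.4 to 70% in WT Control, a difference of -37.8 that passed (exact permutation p = 0.00794, adjusted p = 0.0198), also without any 1 liver. In WT HFD-Pio it was -17.3 (exact permutation p = 0.0159, adjusted p = 0.0317), which no longer passed without WT HFD-Pio 1, 3, 4 or 5 or WT HFD 2, 3, 4 or 5 (-18.0 to -15.2, exact permutation, adjusted p = 0.0529 to 0.0733). Neither passed within longer fragment estimates (-35.0 and -15.6, exact permutation, adjusted p = 0.190 and 0.254). The KO differences were -0.17 and -3.02 and did not pass (exact permutation, adjusted p = 0.905 and 0.511). Numbers of AATGG sites overlapped between treated and untreated WT livers on both diets. A share also falls when other sites are added to the total. The falls in AATGG share in WT livers are therefore not separate results from the rise in transcript share.

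The median fold enrichment over the AATGG sites that a liver called was 8.80 to 15.7 in KO Control, 5.11 to 10.1 in KO Pio, 7.40 to 25.4 in KO HFD and 5.70 to 7.47 in KO HFD-Pio. In WT Control it was 4.85 to 8.64. The Sulf1 site had a fold enrichment of 16.5 to 34 in KO Control, 11.6 to 28.7 in KO Pio, 13.3 to 47.9 in KO HFD and 7.87 to 23.5 in KO HFD-Pio, and of 2.96 to 27.3 in the 19 WT livers that called it. Another site called in 36 libraries, on chromosome 9 at 35305104 to 35305701, 27.6 kb downstream of Rpusd4, had no AATGG repeat but 26 copies of its summit 50-mer, with a low fold enrichment of 1.40 to 2.89 in WT and 2.01 to 5.73 in KO livers.

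The 44 sites with the letters common in Alu were called mostly in KO and Pio-treated WT livers. WT Control livers called 0, 0, 0, 0 and 2 of them and WT HFD livers 0, 0, 1, 0 and 0, against 6, 12, 22, 0 and 10 in WT Pio and 23, 0, 1, 15 and 6 in WT HFD-Pio. KO Control livers called 27, 32, 23, 23 and 16, KO Pio livers 8, 3, 12, 11 and 14, KO HFD livers 8, 41, 12, 18 and 4, and KO HFD-Pio livers 14, 12, 1, 8 and 3. KO Control and KO Pio did not overlap. As a share of the sites called, the letters had 7.41 to 14.2% in KO Control and 1.97 to 7.53% in KO Pio, a difference of -6.24 percentage points, and among sites chosen outside the groups compared the difference was -5.83 (exact permutation p = 0.00794, adjusted p = 0.0198), which passed also without any 1 liver. The other 3 contrasts differed by 2.62, 3.21 and -3.10 over all 1084 sites (0.63 and 0.29 in WT Pio and WT HFD-Pio within longer fragment estimates). For sites chosen outside they were 4.44, 4.09 and -2.94 and did not pass (exact permutation, adjusted p = 0.116 to 0.261), except without WT Pio 4 (5.83) or WT HFD-Pio 2 (5.26, exact permutation, adjusted p = 0.0397 for both).

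Sites of KO livers alone lay close to genes and in unique sequence. Of the 346, 130 lay both within 5 kb downstream of a gene and in a RefSeq exon, where GENCODE M21 has no exon. The site on chromosome 12 at 86693825 to 86695676, 1.86 kb downstream of Vash1, an angiogenesis inhibitor gene, overlapped a RefSeq exon of Vash1 and was called in all 20 KO livers with a fold enrichment of 4.64 to 9.38. The widest site, 6709 bp on chromosome 11 at 50118972 to 50125680, overlapped a RefSeq exon of Rnf130, a ubiquitin ligase gene, and was called in all 20 with 5.66 to 11.1. A site on chromosome X at 64497054 to 64498067, 221 kb upstream of Slitrk4, a neuronal adhesion gene and matching the non-coding RNA Rian at 98.3% identity over 71.4% of its length, was called in all 20 with 5.70 to 16. All 3 were called in 0 of 20 WT livers, and were chosen after their values had been seen.

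Intergenic sites near genes of RXR partner pathways were counted. Of 21911 protein-coding genes 1553 (7.09%) had an intergenic site within 100 kb of a start, and the lists below are read against this share with no test. Of 16 PPARγ targets 2 did (12.5%): Mogat1, an enzyme of triglyceride synthesis, with a site 36.6 kb away called in 5 WT livers (2 WT Control and 1 of each other WT group), and Cd36, a fatty acid uptake receptor, with a site 58.9 kb away called in 2 WT Pio livers and 1 WT HFD-Pio liver. Of 24 genes of PPARα and fatty acid oxidation 3 did (12.5%): Acaa1a, Acaa2 and Slc25a20. Of 20 targets of the liver X and farnesoid X receptors 1 did (5%), Mylip, a ubiquitin ligase for the LDL receptor, and of 14 targets of retinoic acid, pregnane X, constitutive androstane and thyroid receptors 0 did.

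Of 22 hepatocyte genes 1 had an intergenic site within 100 kb, Foxa2, a forkhead factor, at 24 kb, and that site matched a transcript over at least 50% of its length. Of 15 clock genes 0 did, and of 14 markers of other liver cells 2 did, Krt19 of bile ducts (72.3 kb, 4 WT Pio, 2 WT HFD-Pio and 3 KO livers) and Ptprc of leukocytes (92.0 kb, 2 WT Pio and 2 WT HFD-Pio livers). The nearest intergenic site to Pparg, the targeted gene, was 2482040 bp away, so these sites check neither the knockout label nor the tissue label.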

How the data were processed

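RXR ChIP-Seq and input libraries of 40 livers were used. The authors aligned reads with Novoalign and called peaks in each liver with MACS2 2.1.1.20160309, with a p cutoff of 0.001 in WT and a q cutoff of 0.05 in KO, per the file headers. The deposited peak tables give fold enrichment, the ratio of ChIP to local input at the summit. The authors' tables also give -log10 p and -log10 q values and the pileup signal at the summit. They hold no reads per site where no peak was called, so the read-count test of the study could not be repeated.

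Peaks were merged into sites and placed with GENCODE M21 on mm10, and the members and lists were chosen with earlier results of these data known. Numbers of sites per liver, with a pseudocount of 1, their ratios and feature shares were compared by two-sided exact permutation tests over 252 assignments of 10 livers. Differences between Pio effects were compared over 63504 assignments of residuals, left after the means of each genotype or diet were removed, which is an approximate test. All had Benjamini-Hochberg adjustment. Because the calls compared also chose the members, these tests are reported for the sites called in at least 3 libraries outside the groups compared, which was decided after seeing the data, and for all members without a test. Sites were tested by Fisher's exact test and, where all 10 livers had a peak, by limma 3.58.1 on the log2 of fold enrichment after subtracting the median of the liver, with adjusted p under 0.05 and at least 2-fold. Both adjusted over all sites tested, and the scripts were tested on simulated data. The labels do not say whether livers of a group were processed together. Precision is limited by tag number (0.628 M to 4.26 M kept per library), and no interval per site could be computed.

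Sequence within 100 bp of the strongest summit was searched on both strands, the 50-base summit sequence was counted in the genome, and transcripts were matched with blastn 2.17.0 (at least 90% identity over 50 bases). Sites were named by fixed ranks: those called in most libraries, gained and lost with Pio, past the limma test, called in most untreated or treated WT livers, closest to the direct repeat, and near listed genes. Some named sites are not reported here. Alternatives were the calling threshold, shortened lists, the least number of libraries, transcript and repeat filters, fragment estimates, centring, a replicate block and leaving out each liver. Same-numbered livers did not deviate together (correlation over 0.1 in 0 of 5 pairs in each of 8 contrasts), so the numbers were not used as pairs. Other software was R 4.3.3, numba 0.67.0, scipy 1.17.1, pandas 2.3.3, numpy 2.4.6, matplotlib 3.10.9 and Python 3.11.15.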

Additional observations from a re-analysis of the deposited data

Results flagged for a closer look

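WT Pio 4 stood apart from the other WT Pio livers in the share of its called intergenic sites that had a purine tract, 48.6% against 15.1% in the next liver, a gap of 0.808 of the group's range (critical value 0.71 for 5 livers). It was the 1 library past that value in 40 tests, which took several measures in each of the 8 groups. Chance gives about 1 flag in 20 tests, so 1 flag is no more than chance gives. The same liver called 72 intergenic sites, the fewest of its group, and its fragment estimate was above 60 bp.

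Among sites chosen by libraries outside the groups compared, the Pio effect on the number called differed between genotypes. On the log2 scale the WT effect exceeded the KO effect by 1.85 on control diet and by 1.91 on HFD. Both differences passed (permutation of residuals, adjusted p = 0.00340 and 0.0205). The test is approximate and assumes equal spread in both genotypes. Within longer fragment estimates the differences were 1.16 and 0.64, and the second did not pass (permutation of residuals, adjusted p = 0.320). Depth and calling cutoff differed with genotype, and their part cannot be told apart from it.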

How the results depend on the processing

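Peak lists carry no reads where no peak was called, WT and KO libraries differed in depth and cutoff, and 5 livers a group limit the exact tests to p = 0.00794, so a missed threshold does not show that groups were alike. Apart from leaving out libraries, 66 values moved, 23 reversed, 10 came to pass, 17 no longer passed and the others kept their direction and side of the threshold. With 1 library left out the counts were 85, 34, 17 and 43, and 1181 kept them. The cause was not tested for any of them. The replicate block changed no call on numbers of sites (WT Pio 1.25, adjusted p = 0.563, WT HFD-Pio 1.12, adjusted p = 0.5, where 32 sign assignments cannot go below an exact p of 0.0625), and with it limma passed 7 sites in KO Pio and 1 in KO HFD-Pio.

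For numbers of sites per liver (log2 differences), lists shortened to equal length gave WT Pio -0.13, WT HFD-Pio -0.86, KO Pio -0.92, WT HFD 0.28, and WT against KO 1.48 in Pio, 0.24 in Control, 1.45 in HFD-Pio and 1.13 in HFD. WT against KO was -0.18 in Pio at q of at most 0.05, -2.38 in Control and -2.93 in HFD at -log10 q of at least 5, and 0.14 in HFD-Pio at a fold enrichment of at least 5. With a minimum of 2 libraries it was 0.0906 in Control and 0.85 in HFD-Pio, and with 5 it was -2.25 in Control, -0.19 in Pio and -2.19 in HFD. Without transcript matches KO Pio was 0.0681 and WT against KO in Pio -1.05, and without non-unique 50-mers the latter was -0.43. The WT minus KO Pio effect was 2.68 and 2.44 (control diet and HFD) at -log10 q of at least 5, and 2.06 and 1.65 with 5 libraries. The diet difference of the Pio effect was -0.40 in WT and 0.0269 in KO with 2 libraries, 0.10 in KO without transcript matches and -0.0126 in WT without non-unique 50-mers. The intergenic to intronic ratio at -log10 q of at least 5 was 0.11 in WT HFD-Pio, 0.0131 in KO HFD-Pio against KO HFD, -0.0773 against KO Pio, and 0.44 and 0.62 in WT against KO Control and HFD.

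Gained and lost sites asked for in 4 of 5 livers were 92 and 0 in WT Pio, 23 and 2 in WT HFD-Pio, 4 and 12 in KO Pio, 0 and 4 in KO HFD-Pio, 0 lost in WT HFD, 0 and 2 between WT HFD-Pio and WT Pio, 1 and 1 in KO HFD, and 0 and 2 in KO HFD-Pio against KO Pio. At q of at most 0.05, WT Pio lost 4, WT HFD-Pio had 54 and 4, WT HFD 2 and 5, and WT HFD-Pio against WT Pio gained 1. At -log10 q of at least 5 the counts were 60 and 1, 23 and 3, 1 gained in KO Pio, 0 and 8 in KO HFD-Pio, 1 and 5 in WT HFD, 0 and 2 between WT HFD-Pio and WT Pio, 0 gained in KO HFD, and 2 and 3 in KO HFD-Pio against KO Pio. Shortened lists gave 29, 14, 1 and 0 gained with Pio, 3 and 4 in WT HFD, 0 and 3 between WT HFD-Pio and WT Pio, and 1 and 3 gained in KO HFD and in KO HFD-Pio against KO Pio. Without transcript matches WT Pio had 39 and 5, WT HFD-Pio 19 and 3, KO Pio lost 10, KO HFD-Pio had 2 and 6, WT HFD lost 6, WT HFD-Pio against WT Pio had 0 and 4, and KO HFD-Pio against KO Pio lost 5. With unique 50-mers alone they were 93 and 6 in WT Pio, 52 gained in WT HFD-Pio, 7 lost in WT HFD, and 5 lost between WT HFD-Pio and WT Pio. Within longer fragment estimates, chosen after seeing the data, 19 and 12 were gained with Pio, and the feature differences were 27.1 and 13.6 (transcripts), -21.4 (purine, HFD) and -19.2 (soft-masked, HFD). In KO HFD-Pio limma passed 1 site without centring and 1 with calls in 4 of 5 livers.

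With 1 library left out, gained and lost counts ran from 93 to 167 and 0 to 15 (WT Pio), 23 to 94 and 3 to 10 (WT HFD-Pio), 5 to 20 and 13 to 40 (KO Pio), 0 to 9 and 5 to 24 (KO HFD-Pio), 0 to 3 and 1 to 19 (WT HFD), 0 to 6 and 3 to 24 (WT HFD-Pio against WT Pio), 2 to 10 and 1 to 26 (KO HFD), and 1 to 10 and 4 to 12 (KO HFD-Pio against KO Pio). Numbers of sites ran from -0.49 to 0.12 (KO HFD), -0.55 to 0.0540 (KO HFD-Pio), -0.11 to 0.52 (WT against KO, Pio) and -0.34 to 0.29 (HFD-Pio). Differences between Pio effects ran from 1.17 to 1.82 (control diet), 1.01 to 1.67 (HFD), -0.23 to 0.52 (diet, WT) and -0.24 to 0.37 (diet, KO), and the ratio in KO HFD-Pio against KO Pio from -0.0484 to 0.0696. Fisher's test passed 0 to 91 (WT Pio) and 0 to 95 (WT HFD-Pio), and limma 1 to 15 (KO Pio), 0 to 4 (KO HFD), 0 to 1 (KO HFD-Pio) and 0 to 1 (WT HFD). Feature shares ran from 27.9 to 36.4 (transcripts, WT HFD-Pio), -40.2 to -32.0 (purine, WT HFD-Pio), -2.43 to -1.58 (purine, KO Pio), -41.4 to -31.8 (soft-masked, WT Pio), -24.7 to -12.8, -1.37 to 0.29 and -4.32 to 0.16 (AATGG in WT Pio, KO Pio and KO HFD-Pio), and -7.17 to -5.47 and 2.24 to 4.07 (Alu letters in KO Pio and WT HFD-Pio).

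Among sites chosen by libraries outside the groups compared, a choice made after seeing the data, longer fragment estimates gave ratios (log2) of 0.0209 in WT Pio, and 0.91 and 0.31 in WT against KO Pio and HFD-Pio. They gave feature differences (control diet and HFD) of 32.3 and 24.2 (transcripts), -17.3 and -18.1 (purine), -30.8 and -31.1 (soft-masked) and -35.0 and -15.6 (AATGG), a WT minus KO Pio effect of 0.64 on HFD, and a diet difference of the Pio effect of 0.10 in WT. With 1 library left out, numbers ran from 1.52 to 2.13 (WT Pio), 1.46 to 2.14 (WT HFD-Pio), -0.34 to 0.12 (KO HFD) and -2.59 to -2.07 (WT against KO, HFD). Ratios ran from -0.0696 to 0.0244 (WT HFD-Pio), -0.10 to -0.0492 (KO Pio), -0.00108 to 0.13 (KO HFD-Pio) and 0.39 to 0.52 (WT against KO, HFD-Pio). Feature shares ran from -24.8 to -14.2, -1.15 to -0.67 and -2.42 to -1.52 (purine in WT Pio, KO Pio and KO HFD-Pio), -17.7 to -13.1 (soft-masked, KO Pio), -21.5 to -15.2 and -0.80 to 0.86 (AATGG in WT HFD-Pio and KO Pio), and 3.62 to 5.83 and 2.94 to 5.26 (Alu letters in WT Pio and WT HFD-Pio). Diet differences of the Pio effect ran from -0.77 to 0.0836 (WT) and -0.17 to 0.17 (KO).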
